A study of Mus musculus with 16 samples.

Results

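The knockout effect shared by liver, lung and heart endothelial cells was measured as the average of the 3 tissue effects with equal weight, and all 16 of the 16 libraries of the series entered it. Knockout libraries carried the genotype label Erg and Fli1 double knockout, and 3 came from liver, 3 from lung and 2 from heart. Control libraries carried the genotype label Wild Type, and again 3 came from liver, 3 from lung and 2 from heart. The 2 groups are called knockout-labelled and control libraries here, and replicate numbers are those of the sample titles. All mice had been given tamoxifen and were sampled on day 10 after induction, and per the labels the drug was used to delete genes. Endothelial cells had been labelled in the living animal by an injected VE-cadherin antibody. After digestion of the tissue, live cells with CD31 and VE-cadherin but without CD45 were sorted, and polyadenylated RNA was sequenced. The sources used here do not give the Cre driver, the deleted exons or the age of the animals.

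Erg and Fli1 are transcription factors of the ETS family, which bind DNA around a GGAA core. In endothelial cells they are known to sit at enhancers and promoters of genes that give these vessels their identity, such as receptors, junction proteins and anticoagulant proteins. Erg is also known to hold down inflammatory genes in cultured human endothelial cells.

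Total counts per library ran from 30226340 to 41449054, and libraries of the same group correlated at 0.964 to 0.986 on the log scale. The 10 defining endothelial markers were present in every library, at no less than 171 CPM, a value of Emcn, which encodes a surface sialomucin. In 5 of the 6 groups 1 library was numbered 2 in its description, and these 5 libraries had 107 to 129 CPM of the Y-linked gene Ddx3y, against 0 to 0.176 CPM in the other 11. Xist, from the inactive X chromosome, was at 0.725 to 0.982 CPM in these 5 and at 467 to 949 CPM in the other 11, so the 5 look male and the 11 female. Liver and lung had 1 male-like library per genotype, and heart had 1 of its 2 knockout-labelled libraries and 0 of its 2 controls. Leaving out the 5 male-like libraries left 1 knockout-labelled heart against 2 controls, so fits without them also have fewer heart libraries. Nothing in the labels says that replicates came from separate animals, so p-values may in part measure technical spread. Each of the 5 groups with a male-like library also held at least 1 female-like library, and so looks to hold more than 1 animal. Whether libraries of different tissues share an animal is not in the labels either. CPM are counts scaled to the TMM-adjusted library size, and a log2 value is a fold change of knockout-labelled over control libraries.

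The targeted genes were read first. Erg (chromosome 16, 95359169 to 95586593, minus strand, GRCm38) had 165, 136 and 131 CPM in knockout-labelled livers, against 361, 337 and 371 CPM in control livers. In lung, Erg had 224, 166 and 164 CPM in knockout-labelled lungs, against 263, 259 and 276 CPM in control lungs. In heart, Erg had 158 and 155 CPM in knockout-labelled hearts, against 204 and 229 CPM in control hearts. Every knockout-labelled library was below every control of its tissue. The mean effect on Erg was log2 −0.77 (SE 0.0813, adjusted p = 1.34e-05). The tissue effects of −1.3 in liver, −0.52 in lung and −0.47 in heart differed from each other (adjusted p = 0.0154). Taken alone, the heart effect on Erg did not pass (adjusted p = 0.0538). Fli1 (chromosome 9, 32422204 to 32542861, minus strand) went against its label. It had 144, 125 and 187 CPM in knockout-labelled livers, against 123, 113 and 114 CPM in control livers. In lung, Fli1 had 136, 98.2 and 138 CPM in knockout-labelled lungs, against 76.6, 77.9 and 76.6 CPM in control lungs. In heart, Fli1 had 207 and 232 CPM in knockout-labelled hearts, against 198 and 236 CPM in control hearts, where the groups overlapped. The mean effect on Fli1 was log2 0.36 (SE 0.0954, adjusted p = 0.0109). Reads outside a deleted exon count towards a gene, and the counts do not show which exons they came from.

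Of 7 genes tested that lie beside Fli1 or Erg, 4 rose and 2 fell by the mean effect. The potassium channel gene Kcnj1 (chromosome 9, 32372493 to 32399197, plus strand) had 21.98, 26.2 and 31.02 CPM in knockout-labelled livers, against 0.0263, 0.03404 and 0.0304 CPM in control livers. Its 3 control liver libraries held 3 counts together, a ratio of 883 with a 95% counting interval of 302 to 4284. Lung had 19.9, 12.4 and 16.5 against 0.0727, 0.111 and 0 CPM of Kcnj1 in knockout-labelled against control libraries, and heart had 45.7 and 48.4 against 0.05804 and 0.222 CPM. Every knockout-labelled library of every tissue was far above every control. Kcnj5, another potassium channel gene (chromosome 9, 32314707 to 32344350, minus strand), had a mean effect of log2 4.67 (SE 0.232, adjusted p = 3.02e-08) with 3.38 in liver, 5.83 in lung and 4.78 in heart. Gm39317 (chromosome 9, 32348682 to 32361738, plus strand) had 19.3, 24.3 and 19.1 CPM in knockout-labelled livers, against 0.105, 0 and 0.0608 CPM in control livers. In lung its ratio was 445 (95% counting interval 152 to 2161, 3 control counts). In heart it had 41.1 and 35.6 CPM in knockout-labelled hearts, against 0 and 0 CPM in control hearts, at least 903-fold higher at a floor of 3 counts over the group. Arhgap32, beside Fli1, did not pass (log2 −0.10, adjusted p = 0.485). Kcnj15, beside Erg, fell (log2 −2.12, SE 0.247, adjusted p = 2.77e-05). Ets2 rose and Ets1 fell, at log2 0.34 (adjusted p = 0.0208) and −0.26 (adjusted p = 0.0486). Both calls ended without the 5 libraries numbered 2, at adjusted p = 0.176 for Ets2 and 0.171 for Ets1. The Ets2 call also ended without heart control 1 (adjusted p = 0.0660), and the Ets1 call in 14 of the 16 fits that left out 1 library.

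The mean effect was called for 5762 of 19646 genes tested (29.3%), of which 2989 rose (15.2% of genes tested) and 2773 fell (14.1%). A gene was called where edgeR's quasi-likelihood test gave a Benjamini-Hochberg adjusted p below 0.05. A change of at least 2-fold was reached by 1143 of the genes that rose and 680 of those that fell. The 3 tissue effects had the same sign for 4581 called genes (79.5%), and for the other 1181 at least 1 tissue had another sign. Taken alone, 3814 genes (19.4%) were called in liver, 9.54% of genes tested higher and 9.87% lower. In lung 1662 (8.46%) were called, 4.35% higher and 4.11% lower, and in heart 3786 (19.3%), 10.2% higher and 9.09% lower. Without lung control 1, 2 or 3 the lung count was 1033, 988 and 917, and without heart knockout-labelled 1, heart control 1 or heart control 2 the heart count was 1793, 1912 and 1883. The heart had the largest of the 3 effects for 50.8% of called genes, the liver for 36.2% and the lung for 13.1%. Heart effects rest on 2 libraries per genotype, against 3 in liver and lung, and only the knockout-labelled hearts include a male-like library. The part of these limits in the shares was not tested. Of the genes called by the mean effect, 2889 (50.1%) were called in 1 tissue alone, 1308 (22.7%) in 2 and 463 (8.035%) in 3. The median over all genes tested was log2 0.02 for the mean effect.

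Effects of like size were defined by a rule of size. The mean effect had to be called, the 3 tissue effects had to share a sign, and the smallest absolute tissue log2 value had to be at least 0.5 times the largest. The rule was met by 1112 genes (5.66% of those tested), of which 517 rose (2.63%) and 595 fell (3.03%). Among these, 212 rose and 190 fell by at least 2-fold. The rule did not ask for a call in each tissue, and 309 of the 1112 (27.8%) were called in all 3 tissues. All libraries of a genotype lay on the same side of all libraries of the other genotype within each of the 3 tissues for 699 like-size genes (62.9%), against 7.67% of all genes tested (3.49% higher, 4.17% lower) and 17.2% of the called genes that were not of like size. These shares describe the rule, since the same effects chose the genes. The test that the 3 tissue effects differ called 2528 genes (12.9%), among them 13 like-size genes (1.17%) and 1433 of the other 4650 called genes (30.8%), and 1549 genes without heart control 1. The rule was set on the same 3 effects as this test, so the shares of 1.17% and 30.8% describe the rule too. Just inside the limit of the rule were Mfge8 (ratio of smallest to largest effect 0.501) and Hs1bp3 (0.501), and just outside it Traf3ip2 and Gaa (0.4995 and 0.4993).

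**Figure D1:**
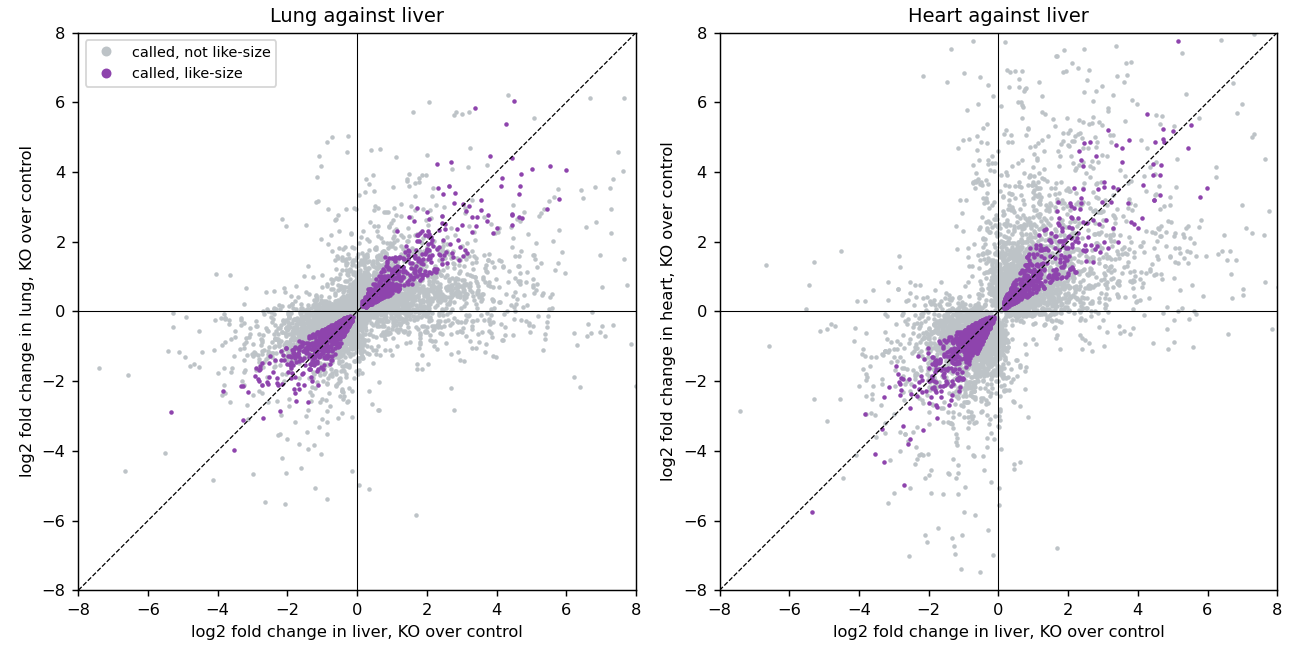
Log2 fold changes (KO over control) of the 5762 genes called by the mean effect, lung against liver on the left and heart against liver on the right, on axes that end at 8 and leave out 26 genes. The 1112 like-size genes (purple) lie along the dashed line of equal effects, and the other called genes (grey) spread along the axes, where 1 tissue moved more than the others.

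Control levels were compared between tissues as well. The rule set no limit on them, but they are part of each tissue effect, so this measure is not independent of the rule. The control level of a gene ranged over the 3 tissues by a median of log2 0.74 for like-size genes that rose and 0.74 for those that fell, against 1.04 for the other called genes and 0.99 for all genes tested. The median of the mean level over all libraries was 27.2 CPM for those that rose and 22.6 CPM for those that fell. It was 26.4 CPM for the other called genes and 8.62 CPM for all genes tested. No test of these differences was made. Protein-coding genes made up 86.7% of like-size genes that rose and 89.8% of those that fell, against 88.4% of the other called genes and 78.4% of all genes tested. Promoters from RefSeq (GRCm38.p6, 250 bases before to 50 after the gene start) were found for 403 of the 517 and 418 of the 595 genes. The start is that of the promoter set and can differ from the GENCODE gene positions given here. The ETS-type motif CGGAAG was present on either strand in 29.3% of promoters of genes that rose and 25.6% of those that fell, against 27.5% for genes tested and 17.2% of all 27025 promoters. AGGAAG, which differs in its first letter and was counted apart, was present in 30.02% and 34.2%, against 33.96% for genes tested and 35.2% of all promoters. For both motifs the share among genes tested lay between those of the like-size genes that rose and fell.

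Promoters of 4 like-size genes are shown because they stand for both directions and for promoters with and without these motifs. Tie1 (chr4:118489800-118490099, minus strand) and Cyyr1 (chr16:85550324-85550623, minus strand) are endothelial genes that fell, Gbp5 (chr3:142496684-142496983, plus strand) is an interferon-induced gene that fell, and Clca3a1 (chr3:144760928-144761227, minus strand) had the largest rise after Kcnj1 by the rule for named genes. Capitals mark CGGAAG or AGGAAG, read as CTTCCG or CTTCCT where the motif is on the other strand. Tie1 held 1 CGGAAG and 2 AGGAAG, Cyyr1 held 1 AGGAAG, and Gbp5 and Clca3a1 held 0 of either. The promoters of Cyyr1 and Gbp5 lie entirely inside the gene positions given in this report, so the motif counts depend on the start used. A match is a match of letters and shows no binding.
Tie1: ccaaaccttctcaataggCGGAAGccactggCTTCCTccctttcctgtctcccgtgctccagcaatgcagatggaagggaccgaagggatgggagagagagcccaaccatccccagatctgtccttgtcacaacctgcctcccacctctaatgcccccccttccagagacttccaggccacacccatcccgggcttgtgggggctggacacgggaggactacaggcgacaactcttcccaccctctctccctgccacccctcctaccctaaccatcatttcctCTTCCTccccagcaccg
Cyyr1: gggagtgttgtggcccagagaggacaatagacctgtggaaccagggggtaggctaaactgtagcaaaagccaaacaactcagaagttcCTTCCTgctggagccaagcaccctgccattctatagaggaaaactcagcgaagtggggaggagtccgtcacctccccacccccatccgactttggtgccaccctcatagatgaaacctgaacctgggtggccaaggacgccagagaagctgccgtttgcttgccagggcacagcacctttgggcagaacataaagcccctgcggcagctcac
Gbp5: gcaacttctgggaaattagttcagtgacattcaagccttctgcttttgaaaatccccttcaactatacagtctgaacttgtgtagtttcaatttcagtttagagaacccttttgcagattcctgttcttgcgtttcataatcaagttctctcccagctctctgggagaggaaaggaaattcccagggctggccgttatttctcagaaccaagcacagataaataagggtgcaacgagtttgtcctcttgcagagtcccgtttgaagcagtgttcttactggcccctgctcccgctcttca
Clca3a1: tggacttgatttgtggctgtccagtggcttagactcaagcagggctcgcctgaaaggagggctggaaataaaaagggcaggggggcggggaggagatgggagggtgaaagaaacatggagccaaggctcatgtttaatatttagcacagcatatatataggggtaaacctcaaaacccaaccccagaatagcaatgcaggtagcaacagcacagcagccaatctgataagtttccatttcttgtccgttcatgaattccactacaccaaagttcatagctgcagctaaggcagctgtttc

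The largest rises of like size, with fully separated libraries and at least 10 CPM in the higher genotype of each tissue, were led, after Kcnj1, by Clca3a1, Itgb3, Il1rl2 and Slc12a2. Clca3a1 (chromosome 3, 144729677 to 144760977, minus strand), of a family that regulates chloride channels, had 1299, 1593 and 1396 CPM in knockout-labelled livers, against 52.3, 80.5 and 89.3 CPM in control livers. In lung, Clca3a1 had 516, 491 and 1008 CPM in knockout-labelled lungs, against 11.6, 18.4 and 18.2 CPM in control lungs. In heart, Clca3a1 had 242 and 254 CPM in knockout-labelled hearts, against 2.699 and 7.01 CPM in control hearts. All 8 knockout-labelled libraries were above all 8 controls, whatever the tissue, and the mean effect was log2 5.11 (SE 0.2595, adjusted p = 3.62e-08). Itgb3, an integrin beta subunit, had 1163, 877 and 1396 CPM in knockout-labelled livers, against 89.7, 87.97 and 116 CPM in control livers. Lung had 115, 55.97 and 304 against 20.1, 19.8 and 22.6 CPM of Itgb3 in knockout-labelled against control libraries, and heart had 385 and 269 against 15.7 and 17.7 CPM. The groups did not overlap, though knockout-labelled lung 3 was far above lung 2, and the mean effect was log2 3.59 (SE 0.294, adjusted p = 1.57e-06). Il1rl2, the receptor for interleukin 36, had 53.1, 43.99 and 54.5 CPM in knockout-labelled livers, against 2.19, 2.21 and 2.52 CPM in control livers. Lung had 37.6, 41.1 and 37.2 against 6.54, 6.07 and 8.09 CPM of Il1rl2 in knockout-labelled against control libraries, and heart had 41.6 and 39.7 against 4.03 and 4.88 CPM. Its knockout-labelled libraries stood close together in all 3 tissues and its controls were lowest in liver. The mean effect on Il1rl2 was log2 3.38 (SE 0.0918, adjusted p = 7.97e-11), and the tissues differed (adjusted p = 0.000129). Slc12a2, a sodium, potassium and chloride cotransporter, had a mean effect of log2 3.06 (SE 0.197, adjusted p = 2.49e-07), with 2.28 in liver, 4.24 in lung and 2.68 in heart (adjusted p that they differ = 0.0146).

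Further large rises were those of Plau, Ccn2, Fkbp5, Mthfd1l and Pkhd1l1. Plau, which encodes urokinase, a plasminogen activator, had 2016, 2428 and 1094 CPM in knockout-labelled livers, against 213, 175 and 173 CPM in control livers. In lung, Plau had 106, 116 and 199 against 16.5, 27.7 and 20.6 CPM in knockout-labelled against control libraries, and in heart 113 and 66.1 against 16.4 and 17.4 CPM. The groups were apart in each tissue, with a mean effect of log2 2.8 (SE 0.209, adjusted p = 7.2e-07). Ccn2, a matricellular protein gene, rose by log2 2.48 (SE 0.258, adjusted p = 1.15e-05), with 2.9 in liver, 2.05 in lung and 2.5 in heart. The like-size rises also held Fkbp5, a cochaperone of the glucocorticoid receptor, at log2 2.41 (SE 0.247, adjusted p = 1.04e-05). Mthfd1l, a mitochondrial folate enzyme gene, rose by log2 2.29 (SE 0.196, adjusted p = 2.29e-06) and Pkhd1l1 by log2 2.92 (SE 0.357, adjusted p = 4.15e-05).

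The largest falls of like size, again chosen with fully separated libraries, were led by Ushbp1, Tnfsf10 and Tbxa2r. The lack of overlap within a tissue was thus part of the choice. Ushbp1 (chromosome 8, 71384272 to 71395802, minus strand) had 292, 200.0 and 122 CPM in knockout-labelled livers, against 1165, 1400.0 and 1135 CPM in control livers. In lung, Ushbp1 had 285, 192 and 164 CPM in knockout-labelled lungs, against 939.8, 835 and 833 CPM in control lungs. In heart, Ushbp1 had 104 and 137 CPM in knockout-labelled hearts, against 1748 and 1632 CPM in control hearts. The highest knockout-labelled library of any tissue, at 292 CPM, was below the lowest control, at 833 CPM, and the mean effect was log2 −2.81 (SE 0.1803, adjusted p = 2.49e-07). The tissue effects of Ushbp1 differed (adjusted p = 0.0334), with −2.59 in liver, −2.02 in lung and −3.81 in heart. Tnfsf10, which encodes the death ligand TRAIL, had 40.2, 45.6 and 22.7 CPM in knockout-labelled livers, against 312, 382 and 354 CPM in control livers. Lung had 118, 93.99 and 133 against 536, 445 and 529 CPM of Tnfsf10 in knockout-labelled against control libraries, and heart had 22.4 and 39.1 against 151 and 189.6 CPM. No group overlapped its control within a tissue, and the mean effect was log2 −2.62 (SE 0.163, adjusted p = 2.02e-07). Tbxa2r, the thromboxane A2 receptor gene, fell, at log2 −2.54 (SE 0.229, adjusted p = 3.49e-06), with −3.13 in liver, −2.31 in lung and −2.18 in heart. Npr1, the receptor for atrial natriuretic peptide, fell, at log2 −1.92 (SE 0.114, adjusted p = 1.53e-07). Gpihbp1, which carries lipoprotein lipase on capillary endothelium, fell, at log2 −2.06 (SE 0.263, adjusted p = 5.73e-05), and the ephrin ligand gene Efna1 at log2 −1.91 (SE 0.168, adjusted p = 2.85e-06). Slc26a10 (log2 −2.31, SE 0.271), Kank3 (log2 −2.04, SE 0.133) and Tcim (log2 −1.98, SE 0.0787) completed the list beside Gbp5, which is given with the interferon genes.

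**Figure D2:**
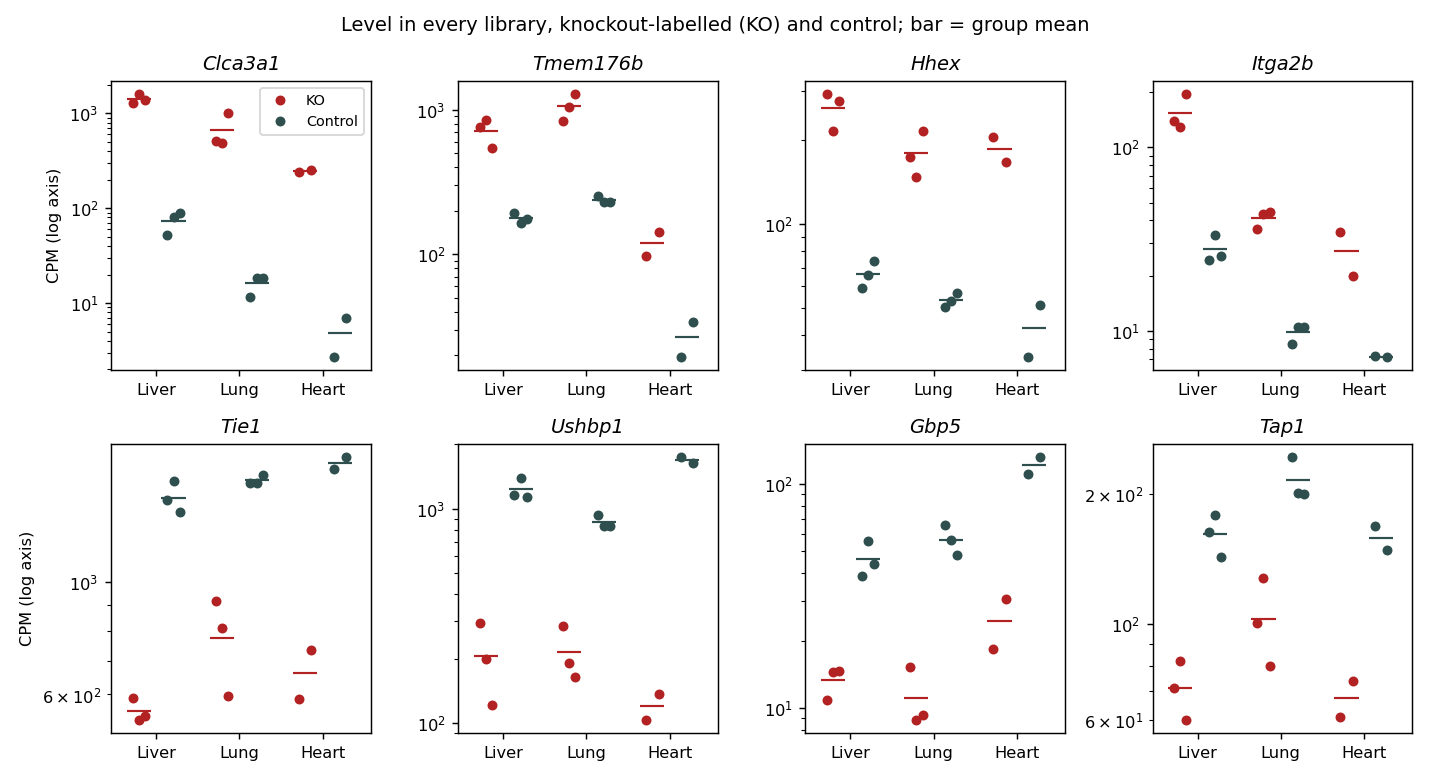
CPM (log axis) in every library for 4 genes that rose (top) and 4 that fell (bottom), with knockout-labelled libraries (KO, red) left of controls (dark) in each tissue and bars at the group mean. Every red point is on the same side of every dark point within a tissue, as for Ushbp1 with 292 CPM at most in knockout-labelled libraries and 833 CPM at least in controls. Such separation was required in the choice of Clca3a1, Tmem176b, Ushbp1, Gbp5 and Tap1.

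Another set held the genes whose 3 effects spanned the least range among like-size genes that changed at least 2-fold and had fully separated libraries. Both the evenness and the lack of overlap were thus part of the choice. Lama3 (chromosome 18, 12333819 to 12583013, plus strand), a laminin alpha chain of basement membranes, had effects of log2 −1.91 in liver, −1.9 in lung and −1.87 in heart. Its knockout-labelled and control levels were 11.1, 11.9 and 10.6 against 48.9, 44.9 and 32.6 CPM in liver, 3.203, 2.95 and 2.91 against 8.31, 14.2 and 11.4 CPM in lung and 15.2 and 24.4 against 89.8 and 54.6 CPM in heart. The mean effect on Lama3 was log2 −1.89 (SE 0.152, adjusted p = 1.28e-06). Tmem176b, a transmembrane protein gene, had the largest even rise, at log2 2.11 (SE 0.149, adjusted p = 5.06e-07). In liver, Tmem176b had 764, 844 and 541 CPM in knockout-labelled livers, against 192, 163 and 174 CPM in control livers. In lung, Tmem176b had 833, 1042 and 1279 CPM in knockout-labelled lungs, against 252, 229 and 231 CPM in control lungs. In heart, where controls were lowest, Tmem176b had 96.8 and 143 CPM in knockout-labelled hearts, against 19.4 and 34.1 CPM in control hearts. The groups were apart in all 3 tissues, and the effects were 2.02 in liver, 2.15 in lung and 2.16 in heart. Both chains of basement membrane collagen IV were in this set, Col4a1 at log2 1.01 (SE 0.171, adjusted p = 0.000552) and Col4a2 at log2 1.03 (SE 0.158, adjusted p = 0.000267), and their genes share a start region on chromosome 8. The survival gene Bcl2l1, which encodes Bcl-xL, had 1.13 in liver, 1.3 in lung and 1.3 in heart (mean log2 1.24, adjusted p = 5.17e-05). Tmcc2 rose by log2 1.05 (SE 0.1103, adjusted p = 1.22e-05), and the inhibitory G protein subunit gene Gnai1 by log2 1.05 (SE 0.168, adjusted p = 0.000368).

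The even falls beside Lama3 were those of Tap1, Thbd, Irgm2, Timeless and Exoc3l2, which were also chosen with fully separated libraries. Tap1, a subunit of the peptide transporter that loads class I molecules, had 71.2, 81.96 and 59.97 CPM in knockout-labelled livers, against 163, 179 and 143 CPM in control livers. Lung had 100.3, 128 and 79.8 against 244, 202 and 200.2 CPM of Tap1 in knockout-labelled against control libraries, and heart had 60.9 and 73.6 against 169 and 148 CPM. No library overlapped the other genotype, and the mean effect was log2 −1.17 (SE 0.107, adjusted p = 3.95e-06). Thbd, which encodes the anticoagulant receptor thrombomodulin, had 2024, 2029 and 2271 CPM in knockout-labelled lungs, against 3520.0, 4251 and 4397 CPM in control lungs. Its levels were 168, 105 and 219.8 against 356, 373 and 341 CPM in knockout-labelled against control livers and 482 and 576 against 909 and 1266 CPM in hearts, lower throughout, with a mean effect of log2 −1.03 (SE 0.141, adjusted p = 0.000102). The interferon-inducible GTPase gene Irgm2 fell, at log2 −1.3 (SE 0.126, adjusted p = 7.05e-06), the replication fork gene Timeless at log2 −1.21 (SE 0.139, adjusted p = 2.46e-05) and the exocyst-like gene Exoc3l2 at log2 −1.03 (SE 0.178, adjusted p = 0.000658).

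**Figure D3:**
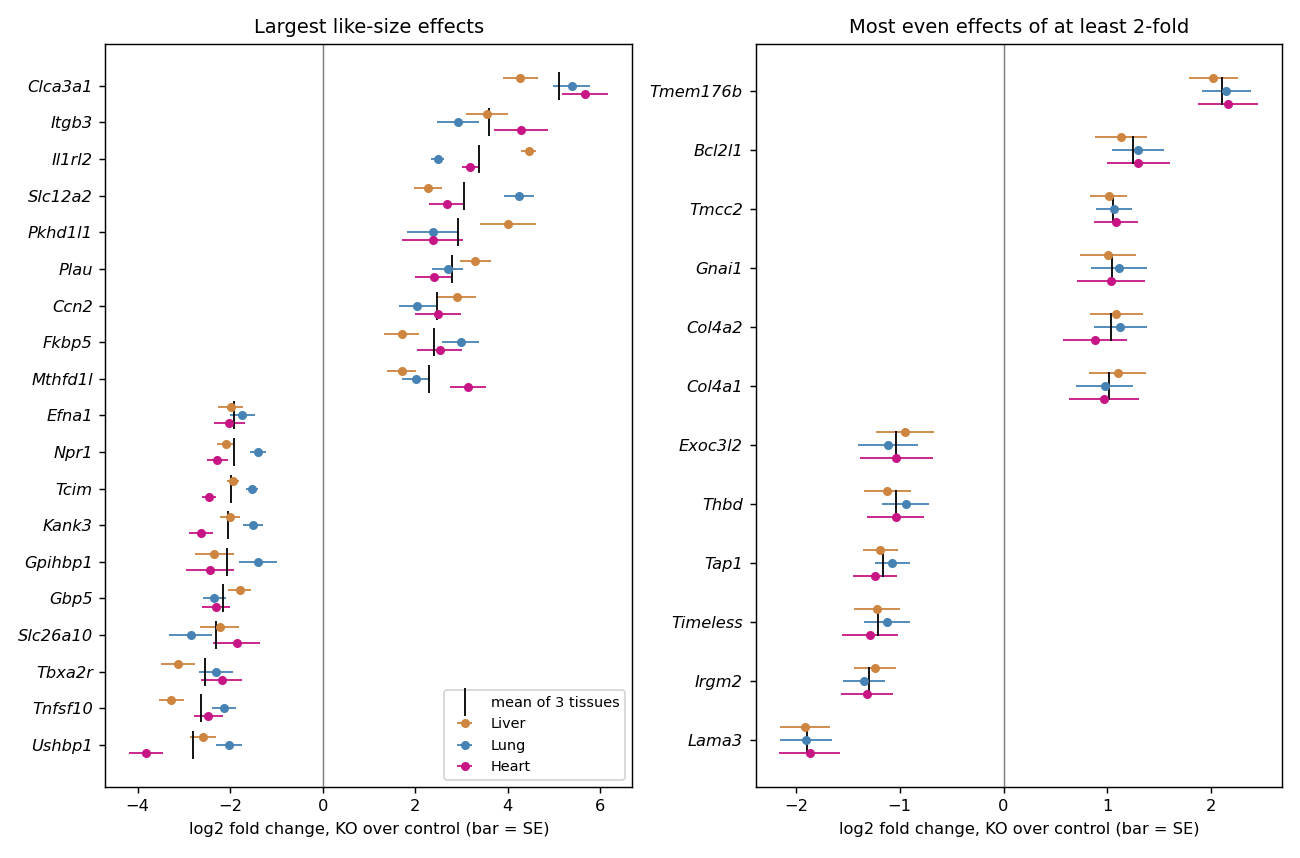
Log2 fold changes (KO over control) in liver, lung and heart with their SE for the like-size genes with the largest mean effects other than Kcnj1 (left) and with the most even effects of at least 2-fold (right), with a black stroke at the mean of the 3 tissues. On the right the 3 tissue values nearly coincide, as for Lama3 at −1.91, −1.90 and −1.87 in liver, lung and heart.

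Averaging also called genes that no tissue called alone. There were 1102 of them (19.1% of the genes called by the mean effect), 560 higher and 542 lower, and 392 were of like size. Their median absolute mean effect was log2 0.51, against 0.75 for like-size genes. The fit took libraries of different tissues as independent. Libraries of the same genotype and description number, however, correlated positively between tissues in 14 of 14 pairs. The voom fit, which allowed for this correlation and also differs in method, called fewer genes of this kind, as given with the processing alternatives. Jak3, a kinase of cytokine receptors, had 484, 334 and 318 CPM in knockout-labelled livers, against 635, 642 and 537 CPM in control livers. Lung had 279, 155 and 223 against 391, 359.6 and 360.2 CPM of Jak3 in knockout-labelled against control libraries, and heart had 389 and 233 against 547 and 442 CPM. The groups were apart in every tissue. The effects of −0.68 in liver, −0.76 in lung and −0.67 in heart gave a mean of log2 −0.70 (SE 0.144, adjusted p = 0.00236). Smaller falls of this kind were in the phospholipase gene Abhd16a (−0.30), the deubiquitinase gene Otud1 (−0.56), Zbtb2 (−0.32) and the aldo-keto reductase gene Akr7a5 (−0.46). Abcf2 had effects of 0.32 in liver, 0.35 in lung and 0.36 in heart and a mean of log2 0.35 (SE 0.0698, adjusted p = 0.00205). The other rises were in Zfp414 (0.37), Eipr1 (0.40), the myosin chaperone gene Unc45a (0.28) and Arid3b (0.49), and the Unc45a call ended without the 5 libraries numbered 2 (adjusted p = 0.051).

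Gene groups were read against 15.2% of all genes tested higher and 14.1% lower. Core endothelial genes were mostly lower, with 36 of 56 that fell, 4 that rose and 16 that did not pass. Their median mean effect was log2 −0.66, with −0.56 in liver, −0.59 in lung and −0.65 in heart. Of the 56 genes 19 were of like size and 12 differed between tissues, against 12.9% of all genes tested that differed. Beside Ushbp1, the receptor tyrosine kinase gene Tie1 (chromosome 4, 118471191 to 118490061, minus strand) had 591, 535 and 545 CPM in knockout-labelled livers, against 1450.0, 1581 and 1376 CPM in control livers. In lung, Tie1 had 917, 813 and 596 CPM in knockout-labelled lungs, against 1572, 1573 and 1629 CPM in control lungs. In heart, Tie1 had 588 and 736 CPM in knockout-labelled hearts, against 1673 and 1768 CPM in control hearts. The groups were far apart in each tissue, and the mean effect was log2 −1.27 (SE 0.0998, adjusted p = 1.06e-06). Cyyr1 (chromosome 16, 85421533 to 85553397, minus strand) fell, at log2 −1.42 (SE 0.105, adjusted p = 7.2e-07), with −1.25 in liver, −1.34 in lung and −1.66 in heart. The homeobox transcription factor gene Hhex (chromosome 19, 37434810 to 37440731, plus strand) moved the other way, with 293, 217 and 277 CPM in knockout-labelled livers, against 58.9, 65.98 and 74.00 CPM in control livers. Lung had 175, 148 and 217 against 50.4, 53.1 and 56.8 CPM of Hhex in knockout-labelled against control libraries, and heart had 206 and 167 against 33.4 and 51.2 CPM. The highest control of any tissue, at 74.0 CPM, was below the lowest knockout-labelled library, at 148 CPM, and the mean effect was log2 1.96 (SE 0.116, adjusted p = 1.48e-07). The sorting markers did not pass, with Cdh5 (VE-cadherin) at log2 −0.25 (adjusted p = 0.115) and Pecam1 (CD31) at −0.24 (adjusted p = 0.128), both chosen after their values were seen. Summed CPM of the 56 genes were 30390.1 to 39989.1 in knockout-labelled and 46153.7 to 51458.9 in control livers, 42241.5 to 50853.7 and 65558.6 to 69611.4 in lungs, and 29650.0 to 33472.9 and 48058.7 to 51768.7 in hearts. In bulk samples, fewer cells of a type and less RNA per cell cannot be told apart.

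Signalling and junction lists of endothelial cells had smaller shares called. Of 21 VEGF and angiopoietin genes, 9 fell and 2 rose (median log2 −0.50). The angiopoietin receptor gene Tek fell, at log2 −1.2 (SE 0.125, adjusted p = 1.2e-05), the growth factor gene Pdgfd at log2 −1.14 (SE 0.0934, adjusted p = 1.58e-06) and the VEGF receptor gene Flt1 at log2 −1.0 (SE 0.1301, adjusted p = 6.89e-05), and Flt1 differed between tissues (−1.57 in liver, −0.36 in lung and −1.07 in heart, adjusted p = 0.0355). Of 24 Notch and arterial genes, 9 fell and 1 rose (median −0.36), and 16 were called without knockout-labelled liver 3. The receptor gene Notch1 and its ligand gene Dll4 were of like size, at log2 −1.16 (SE 0.129, adjusted p = 1.87e-05) and −1.11 (SE 0.148, adjusted p = 8.76e-05). Mfng, a glycosyltransferase that modifies Notch, and Gja5, the arterial gap junction gene for connexin 40, fell at log2 −2.73 (SE 0.1801, adjusted p = 2.68e-07) and −2.19 (SE 0.182, adjusted p = 1.76e-06), and both differed between tissues. Junction genes numbered 25, with 8 that fell and 4 that rose (median −0.22). The adhesion molecule gene Esam was of like size, with −0.93 in liver, −1.01 in lung and −0.86 in heart and a mean of log2 −0.93 (SE 0.108, adjusted p = 2.52e-05), Jam2 fell, at log2 −1.94 (SE 0.157, adjusted p = 1.41e-06), and Nectin2 rose by log2 0.57 (SE 0.0781, adjusted p = 0.000102). Among 22 ETS family genes, 7 fell and 5 rose. Elk3 fell evenly (−0.72 in liver, −0.61 in lung and −0.63 in heart; mean log2 −0.65, SE 0.08302, adjusted p = 5.62e-05), Etv3 fell, at log2 −0.58 (SE 0.0714, adjusted p = 4.63e-05), and Etv4, with 1.42 to 5.27 CPM in knockout-labelled and 0.121 to 0.170 CPM in control livers, rose by log2 3.48 (SE 0.465, adjusted p = 8.62e-05).

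Genes of antigen presentation by class I molecules all fell, 20 of 20 tested, and 11 of them were of like size. The median was log2 −0.90, with −1.21 in liver, −0.65 in lung and −0.94 in heart, and 19 of the 20 genes had fully separated libraries in all 3 tissues. Nlrc5 (chromosome 8, 94434356 to 94527272, plus strand), the transactivator of class I genes, had 17.5, 21.1 and 18.8 CPM in knockout-labelled livers, against 70.4, 74.8 and 55.3 CPM in control livers. Lung had 51.6, 48.5 and 44.7 against 116, 106 and 86.3 CPM of Nlrc5 in knockout-labelled against control libraries, and heart had 33.4 and 26.2 against 122 and 74.9 CPM. The groups did not overlap in any tissue, and the mean effect was log2 −1.54 (SE 0.114, adjusted p = 7.2e-07). H2-Q6, H2-Q7 and H2-K1, which encode class I heavy chains, fell, at log2 −2.09 (SE 0.128, adjusted p = 1.86e-07), −1.93 (SE 0.1204, adjusted p = 2.1e-07) and −1.1 (SE 0.0976, adjusted p = 3.07e-06), and all 3 differed between tissues. Counts of these close paralogs are uncertain. Of 14 class II genes, 10 fell and 1 rose (median −1.65, with −1.54 in liver, −2.16 in lung and −0.17 in heart). The class II transactivator gene Ciita had 3.64, 2.88 and 2.82 CPM in knockout-labelled lungs, against 54.9, 37.7 and 37.9 CPM in control lungs, and 0.160 to 1.22 against 1.79 to 1.98 CPM in knockout-labelled against control livers. Its mean effect was log2 −2.21 (SE 0.281, adjusted p = 5.58e-05). H2-DMb1 and H2-Ob, of the class II loading machinery, fell, at log2 −1.66 and −1.86, and the class II chain gene H2-Aa at log2 −2.0, with −2.27 in liver, −3.54 in lung and −0.19 in heart.

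Among 41 interferon response genes 28 fell, 0 rose and 13 did not pass. Their medians were close in the 3 tissues, at log2 −0.86 in liver, −0.83 in lung and −0.78 in heart (mean effect −0.84). Of the 41, 18 were of like size and 1 differed between tissues. Gbp5 (chromosome 3, 142493978 to 142522344, plus strand), a guanylate-binding protein gene, had 10.8, 14.5 and 14.7 CPM in knockout-labelled livers, against 38.95, 55.6 and 43.9 CPM in control livers. In lung, Gbp5 had 15.2, 8.87 and 9.32 CPM in knockout-labelled lungs, against 65.2, 56.1 and 47.96 CPM in control lungs. In heart, Gbp5 had 18.2 and 30.7 CPM in knockout-labelled hearts, against 111 and 132 CPM in control hearts. All 8 knockout-labelled libraries were below all 8 controls, whatever the tissue, and the mean effect was log2 −2.15 (SE 0.153, adjusted p = 5.29e-07). Gbp2 and Gbp7 were of like size too, at log2 −1.83 (SE 0.136, adjusted p = 7.2e-07) and −1.25 (SE 0.1095, adjusted p = 2.78e-06). Gbp4 (log2 −1.35, SE 0.102, adjusted p = 8.11e-07) was the gene that differed between tissues (adjusted p = 0.0114), with −0.71 in liver, −1.31 in lung and −2.03 in heart. Summed CPM of 20 leukocyte markers moved beside these lists, at 88.7 to 225 CPM in knockout-labelled and 130 to 358 CPM in control livers, 107 to 232 and 488 to 566 CPM in lungs, and 169 to 280 and 16.4 to 48.4 CPM in hearts. They were thus lower in knockout-labelled lungs and higher in knockout-labelled hearts. The class II medians were log2 −2.16 in lung and −0.17 in heart, and the interferon medians −0.83 in lung and −0.78 in heart. Their part in these results was not tested.

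Other groups had more rises than falls, with higher medians in liver and heart than in lung for the first of them. Of 28 hypoxia and glycolysis genes, 20 rose and 3 fell, with medians of log2 0.64 in liver, 0.08 in lung and 1.0 in heart, and 16 differed between tissues. The oxygen sensor gene Egln3 was of like size, with 188 and 92.7 CPM in knockout-labelled hearts, against 3.83 and 5.16 CPM in control hearts. Liver had 37.7, 20.3 and 69.7 against 1.397, 1.43 and 2.005 CPM of Egln3 in knockout-labelled against control libraries, and lung had 2.57, 4.48 and 2.12 against 0.678, 0.194 and 0.5298 CPM. All knockout-labelled libraries were above the controls of their tissue (mean log2 4.12, SE 0.317, adjusted p = 9.35e-07). The stress gene Ddit4 rose by log2 1.86 (SE 0.125, adjusted p = 3.22e-07), with 3.11 in liver, 1.64 in lung and 0.84 in heart, and the glycolysis genes Pgk1 and Eno1 by log2 1.39 (SE 0.111, adjusted p = 1.22e-06) and 1.18 (SE 0.114, adjusted p = 6.76e-06), with Pgk1 at 1.22 in liver, 0.35 in lung and 2.6 in heart. With heart left out, an alternative added after the data were seen, 12 genes of this list were called, and the mean effect on Pgk1 was log2 0.79.

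Among 38 matrix genes 18 rose and 4 fell, with a median of log2 0.77 and tissue medians of 0.63 in liver, 0.14 in lung and 1.11 in heart. Beside the collagen IV genes, fibrillin gene Fbn1 rose by log2 1.81 (SE 0.161, adjusted p = 3.05e-06), the proteoglycan gene Bgn by log2 1.06 (SE 0.102, adjusted p = 5.76e-06) and the collagen gene Col5a1 by log2 1.58 (SE 0.155, adjusted p = 7.22e-06). Col5a1 differed between tissues, with 3.9 in liver, −0.30 in lung and 1.15 in heart (adjusted p = 5.64e-05). Its call ended in an additive fit (log2 1.54, adjusted p = 0.0585). That fit holds the effect equal in all tissues, so a difference between tissues counts as spread. Of 24 mesenchymal and contractile genes, 10 rose and 1 fell (median 0.65). The actin-binding protein gene Cald1 was of like size at log2 1.17 (SE 0.116, adjusted p = 8.2e-06), Tgfbi rose by log2 2.58 (SE 0.272, adjusted p = 1.31e-05), and the integrin gene Itgav rose by log2 1.05 (SE 0.107, adjusted p = 9.65e-06), with 0.02 in liver, 1.17 in lung and 1.96 in heart. Summed fibroblast and mural markers were 40.98 to 261 CPM in knockout-labelled and 60.2 to 95.1 CPM in control livers, 521 to 894 and 435 to 632 CPM in lungs, and 1709 to 2186 and 1744 to 1957 CPM in hearts. These ranges overlapped in every tissue, and of the 16 markers tested 1 rose and 2 fell by the mean effect. Dpt fell, at log2 −1.25 (SE 0.2602, adjusted p = 0.00253). Lum was called at log2 −0.82 and Kcnj8 at 0.93, and with an estimated correlation between libraries (voom) both calls ended (adjusted p = 0.0723 for Lum and 0.229 for Kcnj8). Their part in the matrix result was not tested.

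Among 22 coagulation and fibrinolysis genes 11 rose and 2 fell (median log2 0.69). Plau, given above among the largest rises, was 1 of the 11. Nt5e, which encodes the adenosine-forming enzyme CD73, rose by log2 2.33 (SE 0.231, adjusted p = 7.85e-06), mostly in liver (5.06 in liver, 0.52 in lung and 1.42 in heart), and the ligand gene Gas6 fell, at log2 −1.79 (SE 0.182, adjusted p = 9.82e-06). Platelet and red cell markers are given beside this group. Itga2b, the integrin partner of Itgb3 on platelets, rose by log2 2.15 (SE 0.133, adjusted p = 2.02e-07), with 2.47 in liver, 2.06 in lung and 1.91 in heart. Its level was 138, 129 and 194 CPM in knockout-labelled livers, against 24.5, 33.3 and 25.5 CPM in control livers. The platelet chemokine gene Pf4 rose by log2 2.81 (SE 0.269, adjusted p = 6e-06), with 3.76 in liver, 1.46 in lung and 3.22 in heart. Of 14 platelet and red cell markers, 4 rose, 0 fell and 10 did not pass. The share called was 28.6%, against 29.3% of all genes tested (15.2% higher). The medians of these markers were log2 0.71 in liver, 1.79 in lung and −0.23 in heart. Their sum was 199 to 444 CPM in knockout-labelled and 77.2 to 107 CPM in control livers, 138 to 552 and 60.2 to 72.0 CPM in lungs, and 136 to 173 and 84.4 to 176 CPM in hearts, where the ranges overlapped. The rises of Ppbp and Gp5 had mean effects of log2 0.57 and 0.64 and were lost in 8 and 12 of the 16 fits that left out 1 library. Both calls also ended with an estimated correlation (adjusted p = 0.0787 for Ppbp and 0.0988 for Gp5), and that of Gp5 with the description number as a block (0.0588), with the title number as a block (0.0643) and without the low-count filter (0.0834). The part of platelet RNA in the rises of Itgb3 and Itga2b was not tested.

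Among 26 adhesion and NF-kB genes 14 rose and 2 fell, with medians of log2 0.28 in liver, 0.51 in lung and 1.70 in heart, and 8 were called with heart left out. Tnfaip2 rose by log2 2.5 (SE 0.311, adjusted p = 4.77e-05), the interleukin 1 receptor gene Il1r1 by log2 0.47 (SE 0.0882, adjusted p = 0.00114) and the chemokine gene Ccl2 by log2 2.61 (SE 0.406, adjusted p = 0.000297). Ccl2 had 186 and 89.3 CPM in knockout-labelled hearts, against 4.38 and 4.91 CPM in control hearts, while the lung groups overlapped at 0.922, 1.63 and 2.15 against 1.16, 0.305 and 1.25 CPM in knockout-labelled against control libraries. Cxcl16 fell, at log2 −0.63 (SE 0.0956, adjusted p = 0.000234), with −1.55 in liver, 0.02 in lung and −0.37 in heart. With heart left out the mean effect on Ccl2 was log2 1.49. The 6 chemokine scavengers had 2 rises and 2 falls. Ackr4 fell, at log2 −3.17 (SE 0.344, adjusted p = 1.61e-05), with −5.52 in liver, −4.06 in lung and 0.08 in heart and a mean of −4.79 with heart left out, and Ackr2 rose by log2 0.88 (SE 0.1999, adjusted p = 0.00457). Gpr182, another chemokine scavenger gene, fell, at log2 −0.71 (SE 0.162, adjusted p = 0.00472), and lost its call without the libraries numbered 2 (adjusted p = 0.0584). Of 21 arrest and p53 genes, 10 rose and 4 fell (median 0.44), with Phlda3 at log2 2.01 (SE 0.181, adjusted p = 3.49e-06), Sesn2 at 0.71 (SE 0.119, adjusted p = 0.000524) and the death receptor gene Fas at −0.84 (SE 0.115, adjusted p = 0.000106). Of 30 TGF-beta and BMP genes, 5 rose and 8 fell (median 0.10). The TGF-beta binding protein gene Ltbp4 fell, at log2 −2.63 (SE 0.177, adjusted p = 3.22e-07), Bmp6 at log2 −1.24 (SE 0.129, adjusted p = 1.14e-05) and Bmp4 at log2 −1.68 (SE 0.203, adjusted p = 3.83e-05), and Smad3, a transducer of TGF-beta, rose by log2 1.61 (SE 0.158, adjusted p = 7.29e-06).

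Groups with few calls were read as such. Of 24 AP-1 and immediate early genes 5 rose and 0 fell, or 3 in all without heart control 2. In liver alone 7 rose, and lung and heart had 0 calls, with medians of log2 1.14 in liver, −0.14 in lung and −0.46 in heart. Fosl2 rose by log2 1.45 (SE 0.257, adjusted p = 0.000828) and Nr4a3 by log2 1.62 (SE 0.383, adjusted p = 0.00576), with the largest values in liver. Nr4a2 was called at log2 1.2 (adjusted p = 0.0106) and lost its call with an estimated correlation (adjusted p = 0.0532). The cell cycle list had 3 rises and 1 fall among 26 genes. It had between 2 and 8 calls when 1 library was left out, with 2 without liver control 1 or 3, knockout-labelled liver 1, lung control 3 or either knockout-labelled heart, and 8 and 7 without liver control 2 and knockout-labelled liver 3. Tyms, the thymidylate synthase gene, rose by log2 0.72 (SE 0.1699, adjusted p = 0.00572) and lost its call with heart left out (adjusted p = 0.156). Ccnb1, a cyclin gene, and Gins2, of the replicative helicase, were called at log2 1.53 (adjusted p = 0.0335) and 0.88 (adjusted p = 0.0457). With heart left out these calls ended too (adjusted p = 0.406 for Ccnb1 and 0.555 for Gins2). Both were also lost in several fits that left out 1 library, such as that without liver control 1 (adjusted p = 0.0557 and 0.058). The Gins2 call ended with the description number as a block as well (adjusted p = 0.0728). Of 21 angiocrine genes 4 rose and 4 fell, with Fgf1 at log2 1.84 (SE 0.219, adjusted p = 3.38e-05) and Kitl at log2 −0.77 (SE 0.129, adjusted p = 0.000511).

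**Figure D4:**
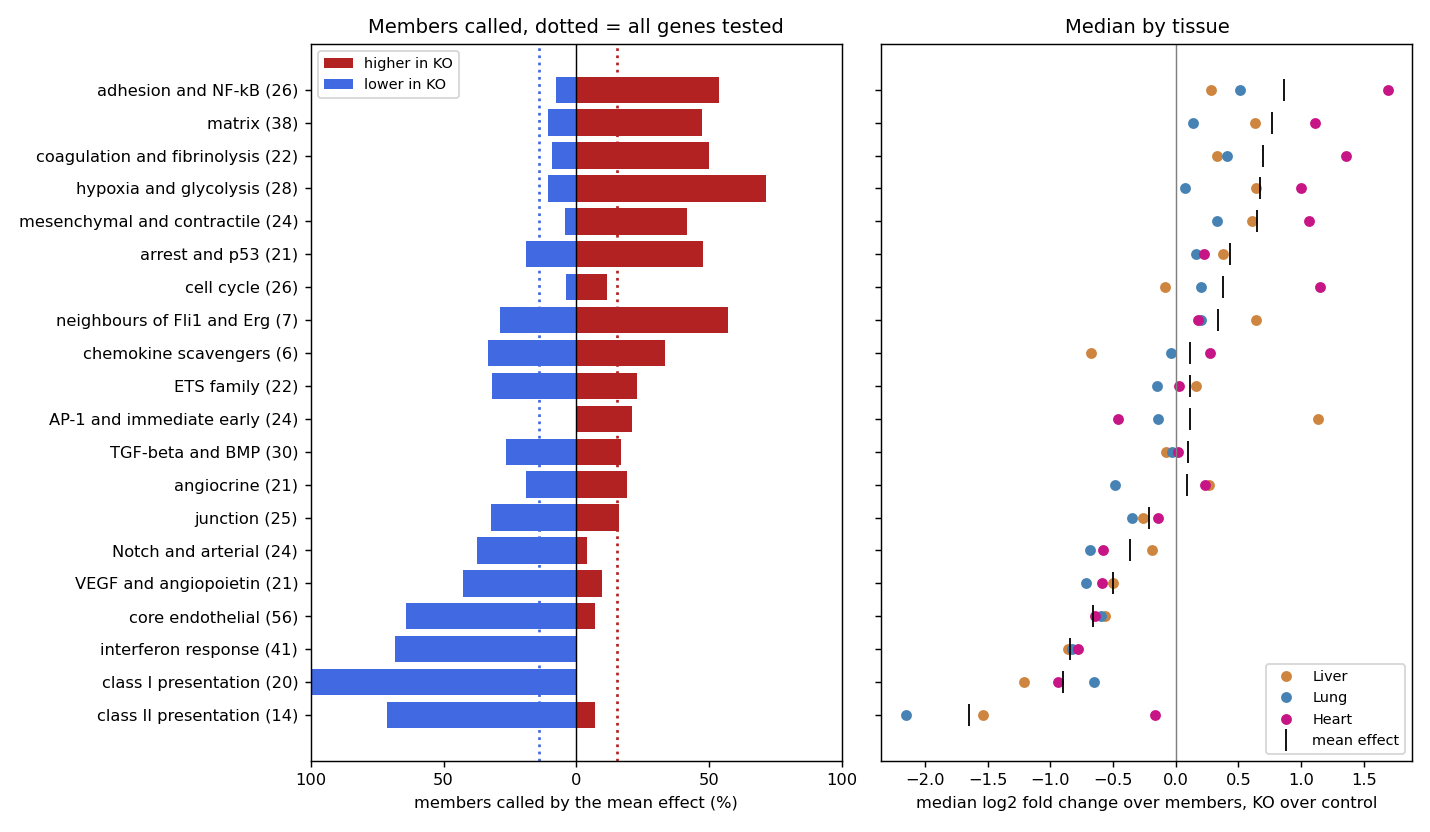
Left, percent of the members of 20 gene lists that were called higher (red) or lower (blue) in knockout-labelled libraries by the mean effect, with the number tested in brackets and dotted lines at 15.2% and 14.1% for all genes tested. Right, median log2 fold change over the members in liver, lung and heart and for the mean effect (black), which lie close together for core endothelial and interferon genes and apart for class II, hypoxia and immediate early genes. Single members could still differ between tissues, as did 12 of 56 core endothelial and 1 of 41 interferon genes.

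Averaging hides effects that run against each other. Of 6751 genes called in at least 1 tissue, 2091 (31.0%) were not called by the mean effect, and 435 (2.21% of genes tested) were called in all 3 tissues in the same direction. Called effects of opposite sign were found in 292 genes, of which the mean effect called 52, and the number was 188, 177 and 174 without knockout-labelled heart 1, heart control 1 or heart control 2. The zinc finger gene Zfp979 had 7.74, 8.44 and 7.37 CPM in knockout-labelled livers, against 0.316, 0.204 and 0.273 CPM in control livers. In heart it had 33.9 and 29.97 CPM in knockout-labelled hearts, against 71.7 and 64.3 CPM in control hearts. Knockout-labelled libraries were thus the higher ones in liver and the lower ones in heart, and the tissues differed (adjusted p = 4.87e-08). Ints6l had 2.69 in liver, 0.70 in lung and −1.15 in heart. The receptor gene Il1rap had −0.76 in liver, 2.18 in lung and 1.01 in heart, and the ubiquitin ligase gene Fbxo32 −0.64 in liver, 2.62 in lung and −0.11 in heart. The mean effects on Zfp979, Ints6l, Il1rap and Fbxo32 were log2 1.32, 0.75, 0.81 and 0.63. All 4 calls ended in the additive fit (log2 1.128, 1.002, 0.818 and 0.658, adjusted p = 0.268, 0.113, 0.123 and 0.31). That fit holds the effect equal in all tissues, so differences between tissues count as spread. These genes were named for such differences, so the loss of their calls there shows nothing further.

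Of the 6 genes with opposite effects named here by the smallest p of the difference between tissues, 2 were surfactant genes of lung epithelium. Sftpa1 had 50.5, 34.5 and 22.4 CPM in knockout-labelled lungs, against 272, 359 and 303 CPM in control lungs. In heart, Sftpa1 had 14.2 and 19.4 CPM in knockout-labelled hearts, against 0.174 and 0.416 CPM in control hearts. It was lower in every knockout-labelled lung and higher in both knockout-labelled hearts, and its mean effect was log2 −0.23 (adjusted p = 0.643). Sftpd had 12.1, 7.64 and 8.44 CPM in knockout-labelled lungs, against 69.5, 66.6 and 66.3 CPM in control lungs, and a ratio of 114 in heart with 2 control counts (95% counting interval 31.3 to 949). Of 15 lung epithelium markers, 12 differed between tissues and 2 rose by the mean effect. Their sum was 454 to 698 CPM in knockout-labelled and 2403 to 3681 CPM in control lungs, 123 to 189 and 8.59 to 12.1 CPM in hearts, and 20.5 to 45.8 and 24.0 to 29.4 CPM in livers. Scgb3a2, a secretoglobin gene, was the 1 of these markers at 0 in both heart controls. Apoc3 and Serpina1c, of hepatocytes, were at 0 in all hearts. Hepatocyte markers summed to 732 to 1136 CPM in knockout-labelled and 908 to 3187 CPM in control livers, and cardiomyocyte markers to 160 to 187 and 223 to 352 CPM in hearts. By the mean effect 2 of 14 hepatocyte markers rose and 0 fell, 1 of 15 cardiomyocyte markers rose and 2 fell, and 4 of 18 leukocyte markers rose and 0 fell. With an estimated correlation the hepatocyte calls ended, at adjusted p = 0.333 for Hp and 0.196 for Ahsg (log2 1.19 and 1.85 as reported). So did that of the cardiomyocyte gene Actc1 (log2 −1.79), at adjusted p = 0.0640, which was also lost with the description number (0.0599) or the title number (0.0592) as a block. Tnni3, of cardiac troponin, was at log2 −1.13 (SE 0.2603, adjusted p = 0.00486). The cardiac troponin gene Tnnt2 had 38.2, 154 and 11.7 CPM in knockout-labelled lungs, against 0.484, 1.05 and 1.25 CPM in control lungs, and the neutrophil gene S100a8, with S100a9 at a mean of log2 3.51, had 30.6, 5.28 and 1.404 CPM in knockout-labelled livers, against 0.132, 0.477 and 0.304 CPM in control livers. In each case 1 knockout-labelled library was far above the others. The part of RNA from other cells in the mean effects was not tested.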

How the data were processed

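The values are raw counts per gene and library as deposited by the authors. FastQC 0.11.5, STAR 2.7.6a and the build GRCm38 are named in the submitters' processing notes. How reads were counted, with which strand setting and on which annotation, is not stated there or in the labels. Per the labels' protocols, libraries were made with an unstranded or a stranded TruSeq kit, and which library had which is not stated, so overlapping and antisense genes are uncertain.

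The table held 52636 genes, and 99.7% took a symbol and position from GENCODE M21. The low-count filter filterByExpr, with group as its design, a minimum count of 10 and a minimum total of 15, kept 19646 genes. Depth was 30226340 to 41449054 counts per library, with TMM factors of 0.916 to 1.07. A single quasi-likelihood model of edgeR, with 6 group means and no block, was fitted to all 16 libraries. The mean effect is the average of the 3 tissue contrasts, and a test with 2 degrees of freedom asked whether they differ. P-values were adjusted by Benjamini-Hochberg over all genes tested, at a threshold of 0.05. Gene lists are given as counts and medians beside those of all genes tested, with no set test.

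Named genes are Erg, Fli1 and their neighbours, the 10 largest rises and 10 largest falls of like size, and the 6 most even of at least 2-fold in each direction. Both sets required fully separated libraries, at least 10 CPM in the higher genotype in each tissue, no predicted gene and no marker gene. Further named genes are up to 4 per list by adjusted p, the 5 per direction called by the mean effect alone and the 6 with opposite tissue effects, both at 10 CPM or more on average. The values of 1 gene named by this rule are not reported here. Members and lists were chosen with earlier results of these data known.

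Alternatives were RLE scaling, DESeq2, no low-count filter, an additive model, replicate blocks, voom with a correlated block, other size rules, each library left out, and all libraries numbered 2 left out. Intervals and floors cover counting error only. The versions were DESeq2 1.42.0, limma 3.58.1 and edgeR 4.0.16, run in R 4.3.3.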

Additional observations from a re-analysis of the deposited data

Results flagged for a closer look

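The genes below are named in the report or by its rules, and each had tissue effects that differed from each other by edgeR's test with 2 degrees of freedom. Each adjusted p is that of the difference, and effects are log2 fold changes of knockout-labelled over control libraries.

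Of the targeted genes and their neighbours, Erg (adjusted p = 0.0154) fell most in liver, and Kcnj5 (adjusted p = 0.0152) rose most in lung. Other named genes of like size that differed were Il1rl2 (adjusted p = 0.000129), Slc12a2 (0.0146), Ushbp1 (0.0334) and Tcim (0.0166). Among endothelial signalling and junction genes, the adjusted p was 0.0315 for Etv3, 0.00391 for Mfng, 0.0223 for Gja5, 0.0355 for Flt1, 0.0204 for Jam2 and 0.0148 for Nectin2. Mfng had −2.81 in liver, −1.38 in lung and −4.02 in heart, and Jam2 had −2.54 in liver, −1.01 in lung and −2.27 in heart.

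Antigen presentation and interferon genes that differed were H2-Q6 (adjusted p = 0.00313), H2-Q7 (0.0125), H2-K1 (0.00807), Ciita (0.0282), H2-Aa (0.0298) and Gbp4 (0.0114). Chemokine genes and scavengers were Cxcl16 (0.00112), Ccl2 (0.0409), Ackr4 (0.00282) and Ccrl2 (0.0263). Ackr4 had 4.25, 2.49 and 0.638 CPM in knockout-labelled livers, against 108, 110.5 and 121 CPM in control livers, and 1.59 and 2.99 against 1.60 and 2.72 CPM in knockout-labelled against control hearts.

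Of coagulation, hypoxia and matrix genes, the adjusted p was 0.000292 for Nt5e, 0.0012 for Gas6, 0.00103 for Ddit4, 0.000727 for Pgk1, 0.00187 for Eno1, 0.0045 for Fbn1, 0.036 for Bgn, 5.64e-05 for Col5a1, 0.00126 for Itgav and 0.00421 for Ltbp4. Gas6 had −3.51 in liver, −0.56 in lung and −1.3 in heart, and Ltbp4 had −3.99 in liver, −1.78 in lung and −2.13 in heart. For signalling and stress genes it was 0.0152 for Smad3, 0.0357 for Bmp6, 0.0159 for Bmp4, 0.0378 for Fosl2, 0.0369 for Nr4a1, 0.0155 for Mcm3, 0.0145 for Fas, 0.0258 for Sesn2, 0.00199 for Gadd45a and 0.0464 for Kitl. Gadd45a, a growth arrest gene, had 3.07 in liver, 0.16 in lung and 0.21 in heart.

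Markers of other cells that differed were Hp (adjusted p = 0.0100), Tnnt2 (0.0322), Sftpd (5.45e-05), Krt18 (0.0408), Itgam (0.0291), Cd14 (0.0227) and Pf4 (0.0385). The genes named for opposite effects had 4.87e-08 (Zfp979), 1.61e-06 (Ints6l), 3.1e-06 (Sftpa1), 8.45e-06 (Il1rap) and 5.45e-05 (Fbxo32).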

How the results depend on the processing

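The mean effect was called for 5783 genes with RLE scaling, 6447 with DESeq2, 5126 without the low-count filter, 4343 in the additive model, 4979 with voom and a correlated block, 4185 without the libraries numbered 2, and 4589 to 5740 with 1 library left out (5762 as reported). Like-size genes numbered 3021 where the effects had to lie within 1 log2 unit, 226 at a ratio of 0.75, and 2094 with heart left out, which was added after the data were seen. With 1 library left out they numbered 914 to 1155, and the lowest number shared with the 1112 was 741, without knockout-labelled heart 1. Without the libraries numbered 2 there were 815, of which 572 were among the 1112. Opposite effects numbered 444 with DESeq2 and 94 without the libraries numbered 2, and genes that differed between tissues 4066 and 941. Without those libraries, liver had 2226, lung 513 and heart 2450 calls, and 2 chemokine scavengers were called. With voom 586 genes were called by the mean effect alone. The cell cycle list had 7 calls with DESeq2, 2 in the additive model and 1 with heart left out. The adhesion and NF-kB list had 10 calls in the additive model and 8 with heart left out, the AP-1 list 3 in the additive model, and the hypoxia list 12 with heart left out. With 1 library left out, calls ranged from 3 to 6 for AP-1, 10 to 16 for Notch and 2 to 8 for cell cycle genes, 174 to 326 for opposite effects, 1549 to 2698 for differences between tissues, 917 to 2087 for lung and 1793 to 4243 for heart. Hp was at log2 −0.53 with heart left out, Sftpd at −0.22 in the additive model and −1.12 with heart left out, and Sftpa1 at −0.47 to 0.016 with 1 library left out, 0.016 being the value without heart control 2, and at −3.25 (adjusted p = 0.000108) with heart left out. The cause of these changes was not tested.

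With the description number as a replicate block 5834 genes were called, and 5848 with the title number. Knockout-labelled and control libraries of the same description number and tissue had correlated deviations of −0.0797 to 0.240 over 7 pairs, of which 2 were over 0.1. The labels do not say what the number marks, and not every pair was over 0.1, so the pairing was not used, although libraries numbered 2 of both genotypes share the male-like Ddx3y and Xist levels. Libraries of the same genotype and number in different tissues correlated positively in 14 of 14 pairs (0.0472 to 0.148), which the voom fit allowed for with a correlation of 0.104. The labels do not say that they share an animal.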

Other observations

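Of the 20 class I presentation genes, 4 differed between tissues, 11 were of like size, and 5 (H2-Q4, H2-T22, H2-T23, B2m and Erap1) were neither. The 4 that differed were the heavy chain genes H2-K1, H2-D1, H2-Q6 and H2-Q7, and each had its largest fall in liver. H2-K1 had −1.76 in liver, −0.57 in lung and −0.96 in heart, and H2-D1 had −1.25 in liver, −0.24 in lung and −0.59 in heart (adjusted p that the tissues differ = 0.0179). The 11 of like size were the non-classical heavy chain gene H2-M3, the transactivator gene Nlrc5 and 9 genes of peptide supply. Among them Psmb9, of the immunoproteasome, had −1.8 in liver, −1.19 in lung and −1.53 in heart (mean log2 −1.51, SE 0.157, adjusted p = 1.17e-05). Tapbpl, which edits class I peptides, had −1.41 in liver, −0.90 in lung and −1.14 in heart (mean log2 −1.15, SE 0.105, adjusted p = 4e-06). These genes were grouped after their values were seen, and no test compared the groups.

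Among the 4 core endothelial genes that rose, 3 encode transcription factors. Beside Hhex these were Lyl1, with 2.15 in liver, 1.63 in lung and 1.22 in heart (mean log2 1.67, SE 0.162, adjusted p = 7.05e-06), and Tal1, a close relative of Lyl1, with 0.65 in liver, 0.39 in lung and 0.56 in heart (mean log2 0.54, SE 0.0713, adjusted p = 8.38e-05), and all 3 were of like size. The fourth was Plvap, of the diaphragms of fenestrae, with 2.09 in liver, −0.16 in lung and 2.2 in heart (mean log2 1.38, SE 0.187, adjusted p = 9.75e-05), which differed between tissues (adjusted p = 0.00451). Of the Sox factors of vessels, Sox18 fell, at log2 −1.4 (SE 0.155, adjusted p = 1.79e-05) and Sox7 at log2 −0.67 (SE 0.108, adjusted p = 0.000372), both of like size, and Sox17 was at log2 −0.12 (adjusted p = 0.424). Ramp2 and Calcrl, whose proteins pair in a receptor, both fell with like size, at log2 −1.23 (SE 0.143, adjusted p = 2.88e-05) and −0.63 (SE 0.0949, adjusted p = 0.000219). These genes too were picked after their values were seen.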
